A study of Mus musculus with 2 samples.

Results

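The nuclear genes of oxidative phosphorylation were taken by symbol from the gene tables of the embryonic mouse midbrain. The rule took names beginning Nduf followed by a, b, c, s or v and a digit (complex I), Sdha to Sdhd (complex II), names beginning Uqcr (complex III), Cox4 to Cox8 followed by a letter (complex IV) and names beginning Atp5 (complex V), and it left out symbols with -ps. It found 88 of 43346 genes: 40 of complex I, 4 of complex II, 8 of complex III, 19 of complex IV and 17 of complex V. RNA sequencing was done on midbrain of B6NCrl mouse embryos at embryonic day 10.5, unmodified and untreated as far as the labels say. There was 1 group with 2 libraries, labelled biological replicates: replicate 1 came from a pool of 69 embryos and replicate 2 from a pool of 51, males and females together, with 10 ng of RNA over 200 nt as the starting amount. Replicate 1 held 45531621 expected counts over the gene rows and replicate 2 held 50477634. With 1 library from each pool there is no condition to test and no p-value is given. The spread between the pools is that of these libraries, and part of it may be technical.

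Oxidative phosphorylation is carried out in the inner mitochondrial membrane. Complexes I and II pass electrons from NADH and succinate to ubiquinone, complex III passes them to cytochrome c and complex IV to oxygen, and complexes I, III and IV pump protons that drive the ATP synthase, complex V. Every complex except complex II joins subunits from the nuclear genome with a few made from mitochondrial DNA, and several nuclear subunits exist as alternative forms used in heart and muscle, lung, testis or low oxygen.

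Levels below are in TPM, a length-corrected share of the transcripts of a library, given for replicate 1 and then replicate 2, and means carry the SD of the 2 libraries (n = 2). In this bulk tissue, fewer cells of a type and less RNA per cell cannot be told apart. Members were abundant: 82 of 88 reached 1 TPM in both libraries, against 58.1% of all protein-coding genes, and 74 reached 100 TPM in both, against 7.67%. The median member stood at 259.8 and 279 TPM, while the median of detected protein-coding genes was 21.5 and 19.8 TPM. Together the members held 29084 and 29902 TPM, and 1.35% and 1.43% of the gene counts. The complexes differed: the median member of complex V was highest at 452.5 and 466.9 TPM, followed by complex III at 395.5 and 413.9 TPM. Complex II stood at 255.2 and 265.6 TPM, complex I at 234.2 and 231.1 TPM and complex IV at 221.1 and 234.4 TPM. The ranges of complexes I and IV overlapped, while those of complexes V, III and II each stood apart from the next. The place of complex IV depended on its low members: the median of its mean levels was 227.8 TPM over all 19, 299.1 TPM without copies and 453.6 TPM without members under 1 TPM in either library. The last value lies above the 404.2 TPM of complex III and beside the 458.6 TPM of complex V. Complex IV was the most divided, with 11 of 19 members at 100 TPM or more in both libraries, against 35 of 40 in complex I, 16 of 17 in complex V and every member of complexes II and III. Summed over members, complex I held 9755 and 9870 TPM and complex V, with fewer genes, 9053 and 9459 TPM. Complex IV held 6039 and 6218 TPM, complex III 3102 and 3218 TPM and complex II 1135 and 1137 TPM.

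**Figure D1:**
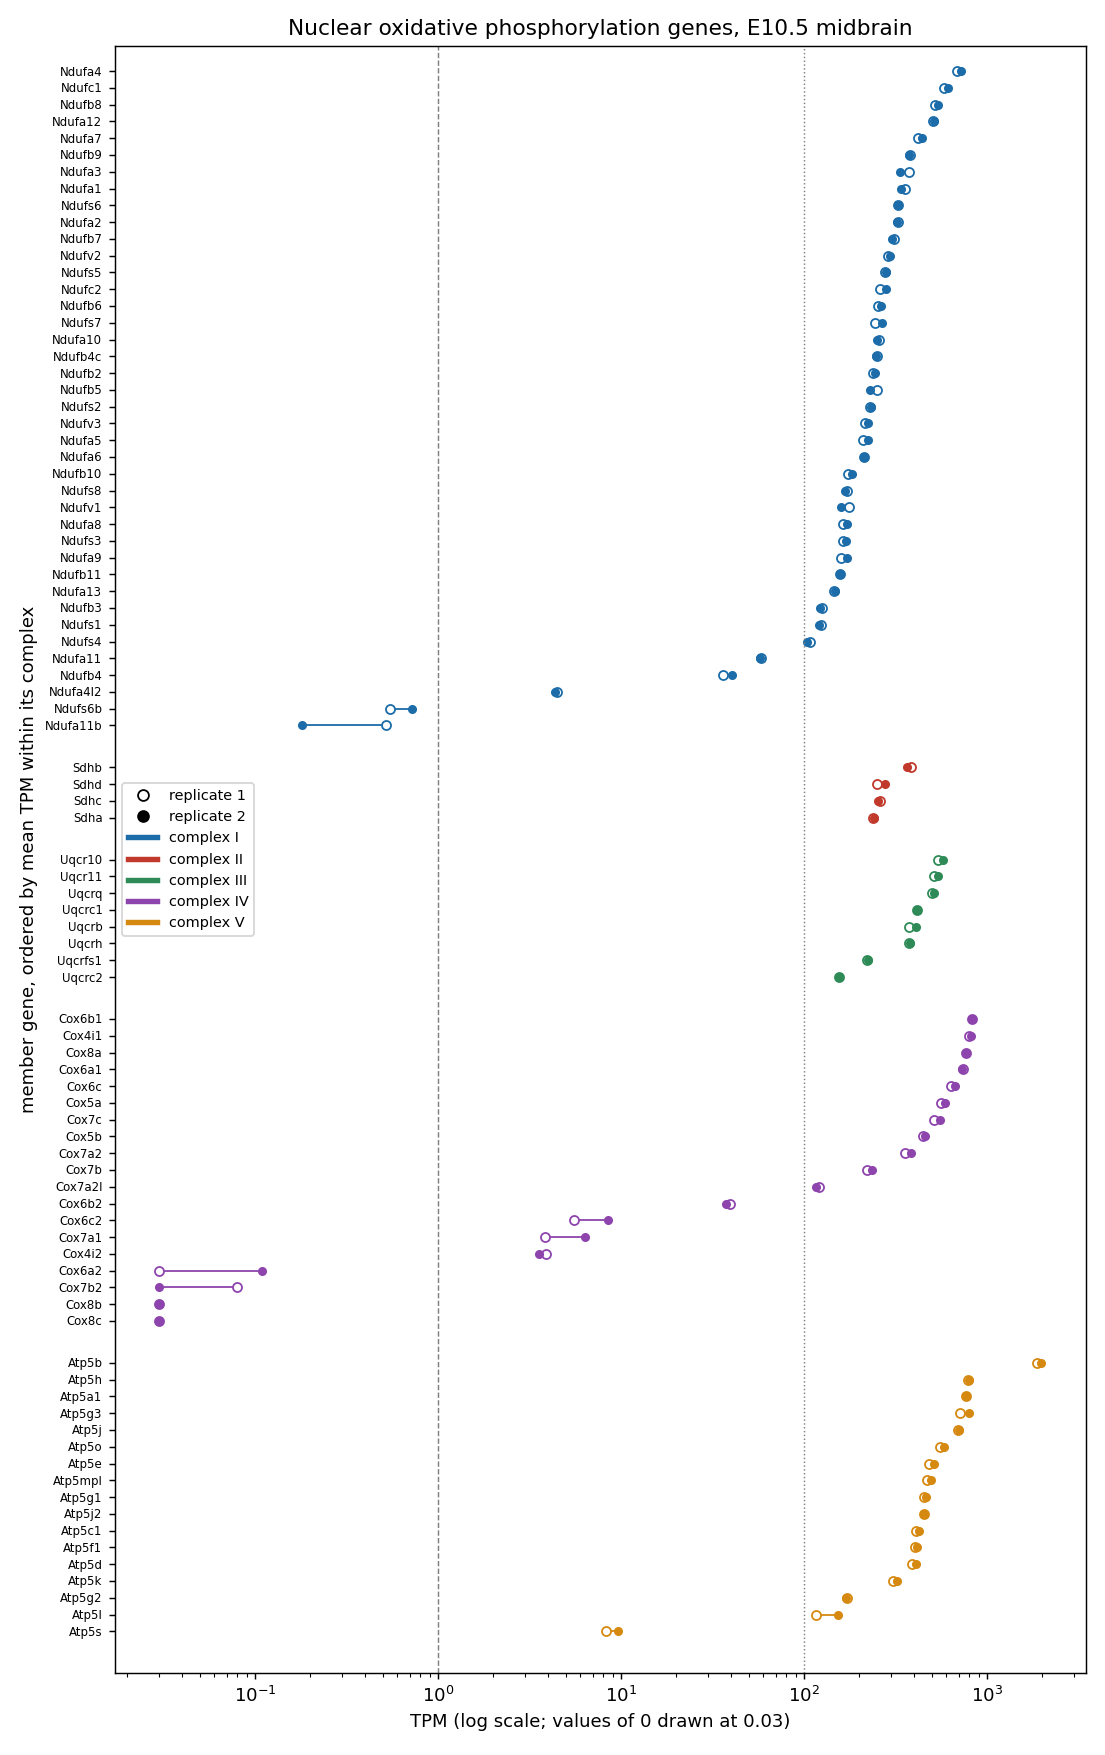
TPM of the 88 members on a log axis, coloured by complex (open circles replicate 1, filled circles replicate 2, joined by a line), ordered by mean within each complex, with dashed and dotted lines at 1 and 100 TPM and values of 0 drawn at the left edge. Most members lie above 100 TPM with both libraries close together, Atp5b stands alone near 1930.1 TPM, and most members under 10 TPM are alternative forms and gene copies, with the larger number in complex IV.

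Complex I was led by Ndufa4, which carries a complex I name although its protein is known as a subunit of complex IV, at 688.5 and 725.7 TPM. Ndufc1, an accessory subunit of the membrane arm, followed at 581.8 and 610 TPM. Ndufb8, another membrane arm subunit, stood at 517.5 and 538.6 TPM, and Ndufa12, an accessory subunit of the peripheral arm, at 508.3 and 516.6 TPM. The ranges of these 4 genes did not overlap. The 7 core subunits, which hold the redox centres or the sites of electron transfer and were grouped and named after their values were seen, had a lower median than the rest of the complex. Ndufv2, a carrier of an iron-sulphur cluster, was the highest core gene at 288.2 and 296.2 TPM. Ndufs1, the largest core subunit with several iron-sulphur clusters, was the lowest at 124.5 and 120.4 TPM. The core median was 175.6 and 169.7 TPM, and that of the 30 other protein-coding members of complex I 252.5 and 247.6 TPM.

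The lowest members of complex I were an alternative form and 2 annotated processed pseudogenes. Ndufa4l2, a relative of Ndufa4 known as a target of hypoxia-inducible factor, stood at 4.47 and 4.36 TPM from 113 and 126 counts. Ndufs6b, a copy of Ndufs6, was at 0.55 and 0.72 TPM, and Ndufa11b, a copy of Ndufa11, at 0.52 and 0.18 TPM. Ndufs6b rested on 4 and 6.01 counts and Ndufa11b on 5 and 2, against 4485 and 5133 counts for Ndufs6 and 4409 and 4962 for Ndufa11. Ndufs4, an accessory subunit of the peripheral arm named after its values were seen, was the lowest of the 74 members at 100 TPM or more, at 107.6 and 103.8 TPM. Just outside that threshold Ndufa11, a membrane arm subunit also named after its values were seen, stood at 58.6 and 57.7 TPM, on a transcript of 2661 nt that GENCODE M21 gives as 545 nt.

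Ndufb4, a subunit of the membrane arm, stood low at 36 and 40.6 TPM, while its intronless copy Ndufb4c stood at 251.5 and 249.1 TPM. Ndufb4c is annotated as a processed pseudogene. The 390 bases of the copy were identical to the 390 bases of the coding sequence of Ndufb4, with no substitution (GENCODE M21). All 291 windows of 100 bases in Ndufb4c were also present in transcripts of Ndufb4, so the counts of 2148 and 2435 given to the copy cannot be told apart from counts of the coding part of Ndufb4. The copy held 79.7% and 76.1% of the counts of the pair. Added together the deposited levels of the pair were 287.5 and 289.7 TPM. The sum joins levels corrected for unlike lengths, 390 nt for the copy and 617.2 and 659.8 nt for Ndufb4. At the length of Ndufb4, counts moved from the copy would give a lower level, so the sum is not the level of Ndufb4. The other 3 copies differed from their parents. Cox6c2 was identical to Cox6c at 97% of aligned bases, Ndufs6b to Ndufs6 at 96.6% and Ndufa11b to Ndufa11 at 94.8%. These 3 copies held at most 0.407% of the counts of their pairs.

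Complex II, succinate dehydrogenase, has no mitochondrially encoded subunit, and its 4 genes all lay between 239.8 and 384.7 TPM. Sdhb, the iron-sulphur subunit, was the highest at 384.7 and 364.5 TPM. Sdhd, a membrane anchor, stood at 251.6 and 277.8 TPM and the other anchor, Sdhc, at 258.9 and 253.4 TPM. Sdha, the flavoprotein that oxidizes succinate, was at 239.8 and 241.4 TPM. Sdhb lay above the other members in both libraries, 1.6 and 1.51 times the level of Sdha, whereas the ranges of Sdhd and Sdhc overlapped.

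In complex III the 3 highest members were small accessory subunits. Uqcr10 stood at 540.3 and 577.9 TPM, Uqcr11 at 516 and 539.4 TPM and Uqcrq at 504.1 and 510.6 TPM. Uqcrc1, a large core subunit that faces the matrix, stood at 415.4 and 416.7 TPM, while its partner Uqcrc2 was the lowest member at 154.8 and 155.9 TPM. The level of Uqcrc1 was thus 2.68 and 2.67 times that of Uqcrc2, with almost no spread between libraries. Uqcrfs1, the Rieske iron-sulphur protein, stood at 221.9 and 224.5 TPM and Uqcrh, the hinge protein, at 375.6 and 382 TPM. Uqcrb, an accessory subunit, stood at 373.6 and 411.1 TPM. The ranges of the 3 highest members did not overlap, that of Uqcrb covered that of Uqcrh, and all 8 members exceeded 100 TPM in both libraries.

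Complex IV, cytochrome c oxidase, had a group of abundant members and a group of low ones. Cox6b1, a subunit of the intermembrane side, stood at 824 and 828.1 TPM. Cox4i1, a regulatory subunit, was at 802 and 819.7 TPM, Cox8a at 764.4 and 772.5 TPM and Cox6a1 at 738.7 and 731.8 TPM. These 4 kept the same order in both libraries without overlap. Of the lowest members, Cox8b and Cox8c had 0 counts in both libraries. For Cox8b, a form of heart and skeletal muscle, 0 counts allow up to 0.389 and 0.34 TPM, taking 3 counts as the limit. For Cox8c, a form of testis, they allow up to 0.271 and 0.237 TPM. Cox7b2, another testis form, had 1 count in replicate 1 and 0 in replicate 2, or 0.08 and 0 TPM.

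The alternative subunits showed 1 dominant form in most families. Cox4i1 held 99.5% and 99.6% of the summed TPM of its family, and Cox4i2, a form of lung and of oxygen-sensing smooth muscle cells, stood at 3.91 and 3.56 TPM. Cox6a1 held 100% and 99.985%, and the muscle form Cox6a2 had 0 and 2 counts. Cox7b held 99.96% and 100%, and Cox8a 100% of its family in both. Ndufa4 held 99.36% and 99.4% against Ndufa4l2, 154 and 166.5 times its level. In these 5 families the common form held more than 99% in both libraries. For Cox8b, 0 counts allow a family share of up to 0.0508% and 0.044%, and for Cox8c of up to 0.0355% and 0.0307%; these limits cover counting error only.

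The other families were mixed. Beside Cox6b1, Cox6b2, a form abundant in testis, stood at 39.5 and 37.5 TPM from 473 and 518 counts, and took 4.58% and 4.33% of its family. None of 4 germ line markers reached 1 TPM, and their summed level was 0.76 and 0.68 TPM, most of it from Ddx4 at 0.47 TPM in both. In the COX7A family the common form Cox7a2 stood at 354.7 and 386.1 TPM, or 74% and 75.9%. Its relative Cox7a2l, which takes part in respiratory supercomplexes, was at 120.7 and 116.4 TPM, or 25.2% and 22.9%. Cox7a1, the heart and skeletal muscle form, was at 3.86 and 6.4 TPM, or 0.805% and 1.26%. Of 12 striated muscle markers 2 reached 1 TPM in both libraries, the summed level of the list was 12.5 and 11.7 TPM, and Myog and Myod1, which specify skeletal muscle, had at most 3 counts. The highest of the list were Tnnt1, a slow muscle troponin gene, at 5.09 and 3.98 TPM and Actc1, the cardiac actin gene, at 3.02 and 2.6 TPM, which is about the level of Cox7a1. Of 8 pericyte markers 4 reached 1 TPM in both libraries and the list summed to 52.5 and 42.5 TPM. Pdgfrb, a receptor of pericytes and other mesenchymal cells, stood at 19.4 and 18.4 TPM and Notch3 at 22.4 and 18.5 TPM, whereas Rgs5 was at 0.68 and 0.25 TPM and Higd1b at 0.09 and 0 TPM. The part of such cells in the levels of Cox7a1, Cox4i2 and Ndufa4l2 was not tested.

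**Figure D2:**
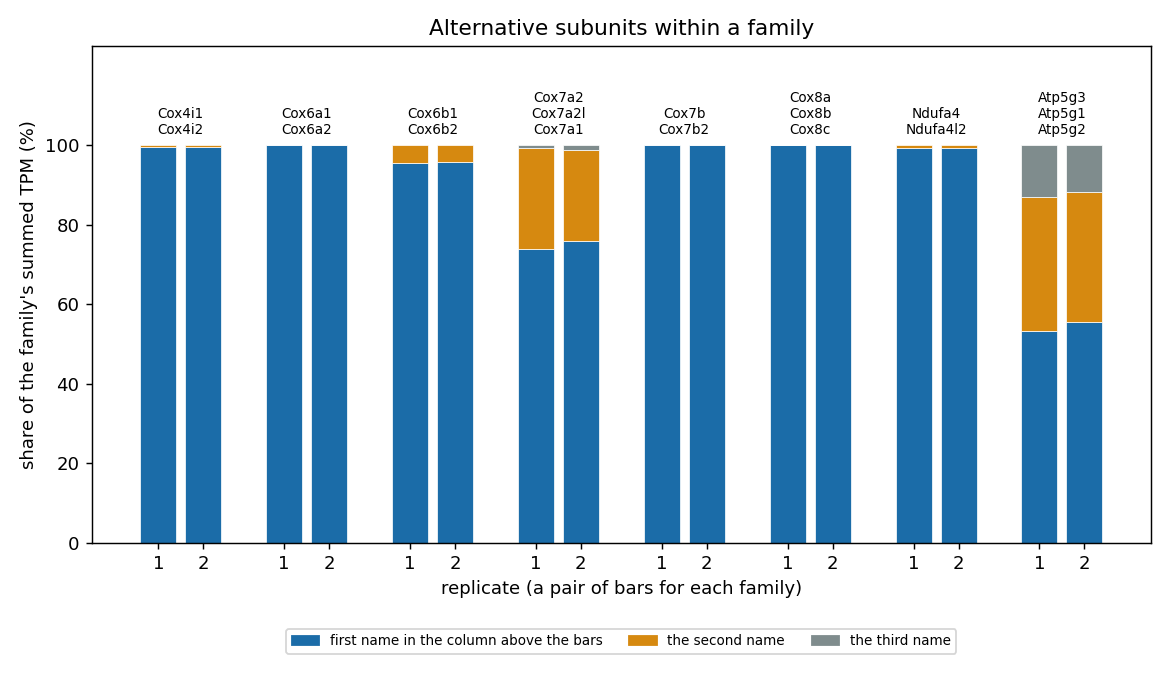
Share of the summed TPM of each family of alternative subunits (vertical axis, percent) held by each form, in replicate 1 and replicate 2, with the forms named above each pair of bars in the order of the colours, from the bottom of the bar upwards. A single form fills the bars of 5 families, Cox6b2 takes 4.58% and 4.33%, and the COX7A and subunit c families are shared.

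Complex V, the ATP synthase, held the highest member of all. Atp5b, the catalytic beta subunit at chr10:128083273-128090391 (GRCm38), stood at 1876 and 1984 TPM, or 1930.1 TPM ± 76.0. Its partner in the catalytic head, the alpha subunit gene Atp5a1, stood at 772.1 and 765.6 TPM. The level of Atp5b was 2.43 and 2.59 times that of Atp5a1, although the head holds both proteins in equal number. Part of the level of Atp5b, 419 and 459.1 TPM, was given to a processed transcript of 478 nt. The main coding transcripts stood at 1359 and 1425 TPM for Atp5b and at 722.7 and 719.7 TPM for Atp5a1. Atp5h, a subunit of the peripheral stalk, was at 786.6 and 793.2 TPM. Atp5g3, a gene of the membrane ring, was at 708.9 and 796 TPM. The ranges of Atp5h and Atp5a1 did not overlap, and the wide range of Atp5g3 covered both. The central stalk genes Atp5c1, Atp5d and Atp5e, grouped after their values were seen, were close together, with a median of 412 and 426.6 TPM. The 4 peripheral stalk genes, grouped in the same way, had a median of 623.5 and 643 TPM.

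The low members of complex V differed in kind. Atp5s, whose protein is known as a coupling or assembly factor and not as a structural subunit, stood at 8.28 and 9.67 TPM. Atp5l, the membrane subunit g, was at 116 and 153.5 TPM. For Atp5l, 61.3% of the windows of 100 bases in its main transcript occurred in transcripts of 5 other genes, so its level depends on how shared reads were divided. The remaining members of complex V lay between 171.1 and 698.9 TPM in their means.

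**Figure D3:**
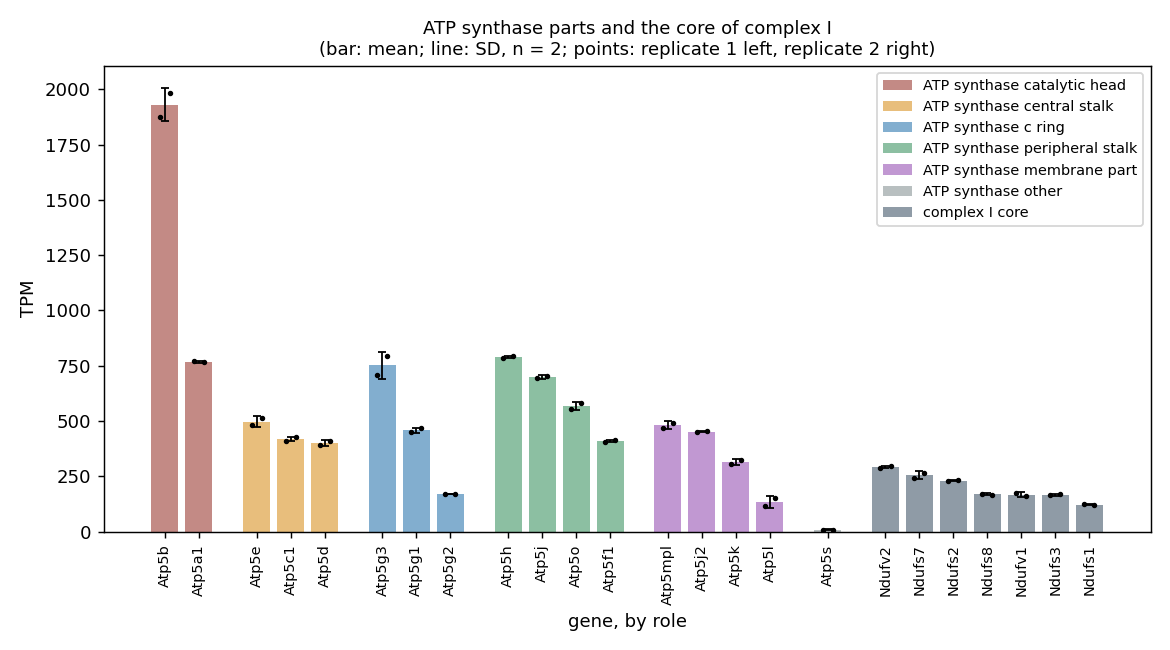
TPM of the ATP synthase genes by part of the enzyme and of the 7 core genes of complex I (bars, mean; lines, SD, n = 2; points, replicate 1 on the left and replicate 2 on the right). Atp5b exceeds its partner Atp5a1 in both libraries, and the core genes of complex I lie between 120.4 and 296.2 TPM.

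Subunit c, the proton-carrying ring, is made from 3 genes, whose precursors differ in the import sequence and give the same mature protein. Atp5g3 led with 53.3% and 55.5% of their summed TPM. Atp5g1, at 450.2 and 466.9 TPM, held 33.8% and 32.6%, and Atp5g2, at 172 and 170.2 TPM, held 12.9% and 11.9%. Their order was the same in both libraries and their ranges did not overlap. The last 210 bases of the coding sequences are printed because they show how far reads of this shared part can be assigned to 1 gene. Capitals mark, in Atp5g1, bases at which the 3 genes are not all alike and, in Atp5g2 and Atp5g3, bases that differ from Atp5g1 (transcripts of GENCODE M21; genes at chr11:96068852-96075670, chr15:102662864-102672352 and chr2:73908447-73911326, GRCm38, all on the minus strand).
Atp5g1: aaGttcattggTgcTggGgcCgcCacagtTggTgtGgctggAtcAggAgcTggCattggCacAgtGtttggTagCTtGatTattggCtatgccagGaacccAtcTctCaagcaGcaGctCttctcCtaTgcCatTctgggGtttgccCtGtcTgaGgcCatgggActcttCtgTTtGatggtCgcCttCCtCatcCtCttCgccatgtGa
Atp5g2: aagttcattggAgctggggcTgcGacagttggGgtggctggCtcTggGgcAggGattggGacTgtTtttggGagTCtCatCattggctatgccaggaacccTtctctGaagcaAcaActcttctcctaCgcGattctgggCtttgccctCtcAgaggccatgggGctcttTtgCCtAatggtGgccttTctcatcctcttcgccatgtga
Atp5g3: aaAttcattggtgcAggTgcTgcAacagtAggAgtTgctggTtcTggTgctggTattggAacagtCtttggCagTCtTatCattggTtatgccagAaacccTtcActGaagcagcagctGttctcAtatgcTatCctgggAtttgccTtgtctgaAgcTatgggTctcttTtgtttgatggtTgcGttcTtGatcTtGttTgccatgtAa
Atp5g1 and Atp5g2 were identical at 177 of the 210 bases (84.3%), Atp5g1 and Atp5g3 at 168 (80%) and Atp5g2 and Atp5g3 at 164 (78.1%). Of the 33 differences between Atp5g1 and Atp5g2, 31 fell on the third codon position, as did 37 of 42 between Atp5g1 and Atp5g3 and 41 of 46 between Atp5g2 and Atp5g3. No window of 100 bases in the main transcript of Atp5g3 occurred in another gene. Atp5g2 and Atp5g1 did share windows: 86.4% of those of Atp5g2 and 57.3% of those of Atp5g1 occurred elsewhere, all of them in Gm10175 and in Gm10039 respectively. The levels of these 2 genes therefore rest on how the deposited tables divided shared reads. Over all members, the main transcripts of 67 shared no window with another gene and those of 4 shared over 50%. This covers only exact matches of the main transcript. Expected counts of 34 members were not whole in 1 or both libraries, so members without a shared window are not thereby free of divided reads.

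The mitochondrially encoded subunits were measured in the same libraries. All 13 reached 1 TPM in both, with a summed level of 18061 and 17313 TPM, and the nuclear members together held 1.61 and 1.73 times that sum. Of these subunits, mt-Atp6 was the highest at 5125 and 5138 TPM, followed by mt-Atp8 at 3786 and 3738 TPM. The lowest were mt-Nd3 at 164.7 and 231.9 TPM and mt-Nd4l at 30.7 and 13.2 TPM. Some of these levels were loosely fixed: in replicate 1 the deposited credible bounds were 12.7 and 186.4 TPM for mt-Nd4l, 578 and 4256 TPM for mt-Co3, and 3255 and 5285 TPM for mt-Atp6. Those of mt-Atp8 were closer, at 3646 and 3780 TPM. For mt-Nd4l in replicate 2 the bounds were 0.469 and 60.4 TPM, the lower of them under the 1 TPM taken as detection. The sum, its ratio to the members and the order of these genes carry that uncertainty. The median mitochondrial gene stood at 772.9 and 734.8 TPM, above the median nuclear member. Subunits and carriers that the naming rule leaves out were also read. Of 9 such genes, Usmg5, a small ATP synthase subunit, was the highest at 923.6 and 986.7 TPM and Atpif1, the inhibitor of the ATP synthase, stood at 827.7 and 820.5 TPM. Slc25a31 and Cyct, the testis forms of the ADP/ATP carrier and cytochrome c, were the lowest, with 0.11 and 0.23 TPM for the carrier and 0 and 0.05 TPM for the cytochrome.

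Assembly factors, which build the complexes without staying in them, had lower medians than the subunits of their complexes. All 16 complex I factors were detected, with a median of 37.9 and 37.5 TPM, from Ndufaf8 at 75.2 and 76.8 TPM and Ndufaf2 at 70 and 74.5 TPM down to Ndufaf5 at 22.6 and 24.7 TPM and Nubpl, a carrier of iron-sulphur clusters, at 13.1 and 14.9 TPM. The 4 complex II factors ran from Sdhaf4 at 65.9 and 68.1 TPM and Sdhaf2 at 26.3 and 28.1 TPM to Sdhaf1 at 18.1 and 15.6 TPM and Sdhaf3 at 6.16 and 6.5 TPM. Among 6 complex III factors, Uqcc2, needed for synthesis of cytochrome b, stood apart at 341.3 and 349.7 TPM. Uqcc1, which acts with it, was at 70.8 and 67.6 TPM, Ttc19 at 14.9 and 13.4 TPM and Lyrm7, which guides the Rieske protein, at 5.5 and 4.94 TPM. Of 21 complex IV factors 20 were detected, led by Coa3 at 192.5 and 189.6 TPM and Cox14 at 134.8 and 133.5 TPM. Sco2, a copper chaperone, was at 5.8 and 5.16 TPM, and Pet117 had 0 counts in both libraries. The 2 complex V factors were level, with Atpaf2 at 44 and 44 TPM and Atpaf1 at 41.6 and 43.7 TPM. In these 5 lists, 4 complex IV factors and 1 complex III factor reached 100 TPM in both libraries.

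Regulators of respiratory genes were detected for 16 of 17 list members, and none reached 100 TPM. Nrf1, a transcription factor that binds many promoters of respiratory genes, was the highest at 78.5 and 82.1 TPM. Tfam, which packs and transcribes mitochondrial DNA, stood at 62.3 and 71.7 TPM. The coactivator gene Ppargc1a was low at 1.49 and 1.15 TPM, from 194 and 162 counts. Esrrb, an orphan nuclear receptor gene, was under 1 TPM at 0.4 and 0.24 TPM, from 48 and 31 counts. Of the mitochondrial ribosomal protein genes, a set compared after its values were seen, all 77 were detected, 37 reached 100 TPM in both libraries and the median was 97.6 and 104.4 TPM.

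Promoters were searched for short motifs of factors known at respiratory genes, chosen with earlier results of these data known. RefSeq promoters (GRCm38.p6, 250 bases before to 50 after each start) were matched for 66 of the 88 members, which have 71 promoters. On either strand, the NRF1 motif, whose letters are the capitals of the NRF1 windows printed further on with any base at its sixth position, occurred in 25.4% of member promoters, against 4.6% of all 32851 promoters and 14.2% of those of protein-coding genes of at least 100 TPM. The ETS motif CCGGAAGT occurred in 7.04% of member promoters, against 3.89% and 11.2%. The YY1 motif occurred in 5.63%, against 0.986% and 3.76%. The median content of G and C was 57.3% in member promoters and 61% in those of the abundant genes. Counted by gene, 17 members held the NRF1 motif, 5 the ETS motif, 4 the YY1 motif and 24 any of them. Only Ndufb4 and Sdha held 3 NRF1 matches. All 4 YY1 matches, in Ndufa9, Ndufs4, Ndufs6 and Ndufs7, began 24 to 35 bases after the start on the strand of the gene, and the NRF1 matches lay between 191 bases before and 30 after it. The genes named for a motif were found by the search and not by level. The following windows, matches in capitals with 12 bases on each side, are shown because they lie wholly before the start and outside every exon of GENCODE M21.
Ndufs5, NRF1, chr4:123718263-123718296, minus strand: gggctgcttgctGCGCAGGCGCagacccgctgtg
Ndufa11, NRF1, chr17:56717690-56717723, plus strand: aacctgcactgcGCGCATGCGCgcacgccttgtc
Ndufb4, NRF1, chr16:37654538-37654571, minus strand: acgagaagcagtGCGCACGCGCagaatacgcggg
Uqcr11, ETS, chr10:80406868-80406899, minus strand: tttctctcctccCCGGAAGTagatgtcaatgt
Cox6a1, NRF1, chr5:115349054-115349087, minus strand: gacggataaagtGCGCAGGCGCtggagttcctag
Atp5h, NRF1, chr11:115420039-115420072, minus strand: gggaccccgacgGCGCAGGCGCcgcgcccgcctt
The levels of these genes ran from Ndufb4 at 36 and 40.6 TPM to Atp5h at 786.6 and 793.2 TPM. A match says only that these letters are present, and binding was not measured.

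**Figure D4:**
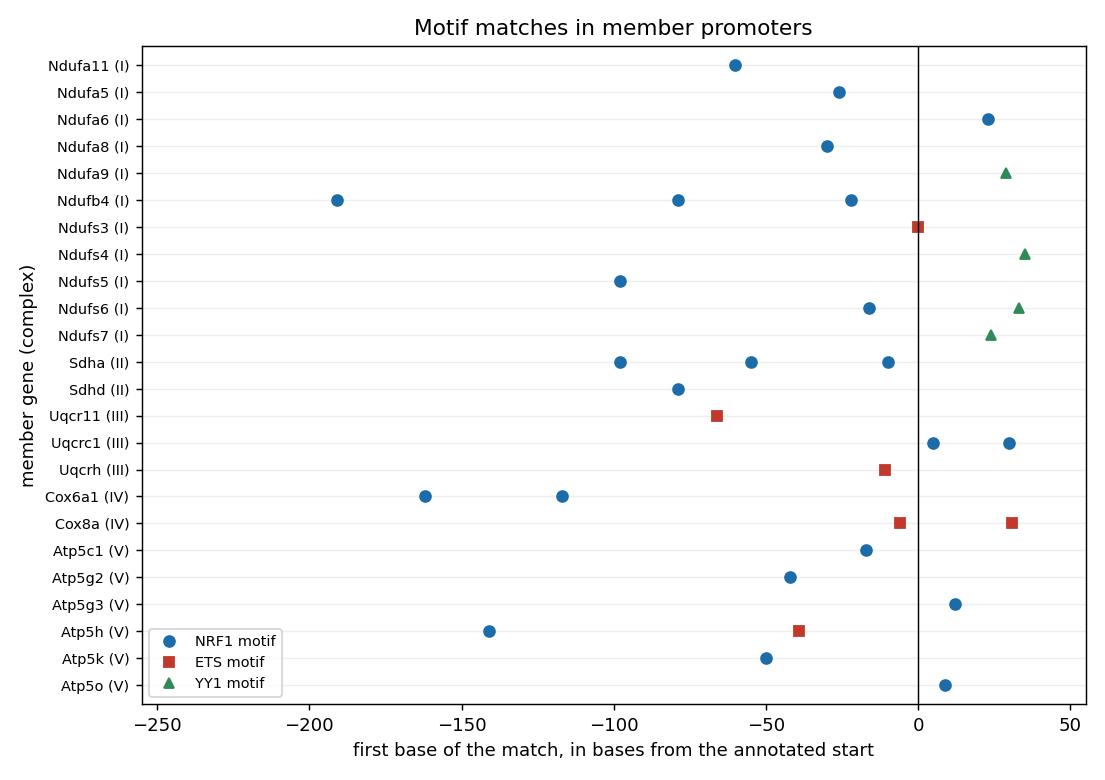
Position of the first base of each NRF1, ETS and YY1 motif match (horizontal axis, bases from the annotated start, negative before it) in the promoters of the 24 members that hold any (vertical axis, complex in brackets). NRF1 matches are spread from 191 bases before to 30 after the start, and the 4 YY1 matches cluster at 24 to 35 bases after it.

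Differences between the pools were described as log2 ratios of replicate 2 over replicate 1 after TMM scaling, which sets the libraries to a common size by the bulk of their genes, with 0.5 added to each count. Of the 82 members whose mean reached 1 TPM, 2 differed by 1.5-fold or more. Of all 14768 genes at that level 9.64% did so. Both members were higher in replicate 2, as were 3.09% of all these genes, and 6.54% were that much higher in replicate 1. Cox7a1 had 30 and 57 counts, a ratio of 1.74. Beside it, the striated muscle markers did not move together. Des had 83 and 192 counts, while Tnnt1 had 113 and 103, Actc1 122 and 120, Myh3 55 and 18 and Acta1 21 and 9. The 3 markers with a mean of 1 TPM or more had a median log2 ratio of -0.14, the list summed to 12.5 and 11.7 TPM, and the part of muscle RNA in the difference was not tested. Cox6c2, the copy of Cox6c, had 21.5 and 37.9 counts, a ratio of 1.66, and 34.8% of its windows were shared with Cox6c. The deposited credible bounds of both genes overlapped between the libraries. For Cox7a1 they were 2.6 and 5.3 TPM in replicate 1, 4.77 and 8.05 TPM in replicate 2. For Cox6c2 they were 2.75 and 9.74 TPM in replicate 1, 4.97 and 13.3 TPM in replicate 2.

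Past that threshold or below it, nearly all members leaned the same way. The median log2 ratio of members was 0.11, and 79 of 82 were higher in replicate 2, against 51.0% of all 14768 genes, whose median was 0.01. Protein-coding genes of at least 100 TPM had the same median of 0.11, with 1325 of 1717 higher in replicate 2, and 0.874% of them differed by 1.5-fold either way. That median over abundant genes includes the members among them. By complex the medians were 0.09 for complex I, 0.08 for II, 0.11 for III, 0.11 for IV and 0.14 for V. Atp5l at 0.49 (116 and 153.5 TPM) and Ndufb4 at 0.37 lay highest among members above 10 TPM, both with reads shared with other genes. The 3 members lower in replicate 2 were Ndufa3 at -0.07, Ndufv1 at -0.03 and Cox4i2 at -0.05. Members other than Cox7a1 and Cox6c2 that are named for their ratio were chosen after their values were seen. With TPM taken without further scaling the members' median was 0.03 and 57 of 82 were higher in replicate 2, so the direction of single members with small ratios depends on the scaling.

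Some other sets of genes moved more between the pools, and some did not. All 4 newborn neuron markers were lower in replicate 2, with a summed level of 936.1 and 595 TPM and a median log2 ratio of -0.63. After TMM scaling all 8 erythroid markers were higher, with a summed level of 16697 and 18593 TPM and a median of 0.22. Their log2 ratios ran from 0.05 to 0.59, so the rise was uneven. The 5 neuroepithelium markers summed to 1935 and 1704 TPM, with a median log2 ratio of -0.10. The midbrain markers had a median log2 ratio of -0.01. Of these, Otx2, at 138 and 122.7 TPM, and Dmbx1, at 33.3 and 32.7 TPM, were present in both. En1 was lower at 4.74 and 4.46 TPM. Vim, an intermediate filament gene of neural progenitors, stood at 1047 and 957.8 TPM and Hes5, a Notch target, at 698.4 and 585.4 TPM, while Pax6 was at 32.9 and 34 TPM and Sox2 at 23.5 and 20.7 TPM. Of the neuron markers, Tubb3, a neuronal tubulin, stood at 562.4 and 363.9 TPM and Dcx, a microtubule protein of young neurons, at 44.5 and 19.6 TPM. Of the erythroid markers, the embryonic globin Hbb-y stood at 6297 and 6913 TPM. Of 12 hypoxia targets 9 of 11 tested were higher in replicate 2, with a median of 0.35. Ldha stood at 2162 and 3114 TPM and Slc2a1, the glucose transporter gene, at 189.8 and 246.8 TPM, whereas the lowest of the list were Vegfa, with 1.83 and 1.96 TPM, and Car9, with 0.56 and 0.58 TPM. Of the members known from low oxygen, Cox4i2 had a log2 ratio of -0.05 and Ndufa4l2 of 0.04. The part of these cell type and metabolic differences in the members' lean was not tested.

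**Figure D5:**
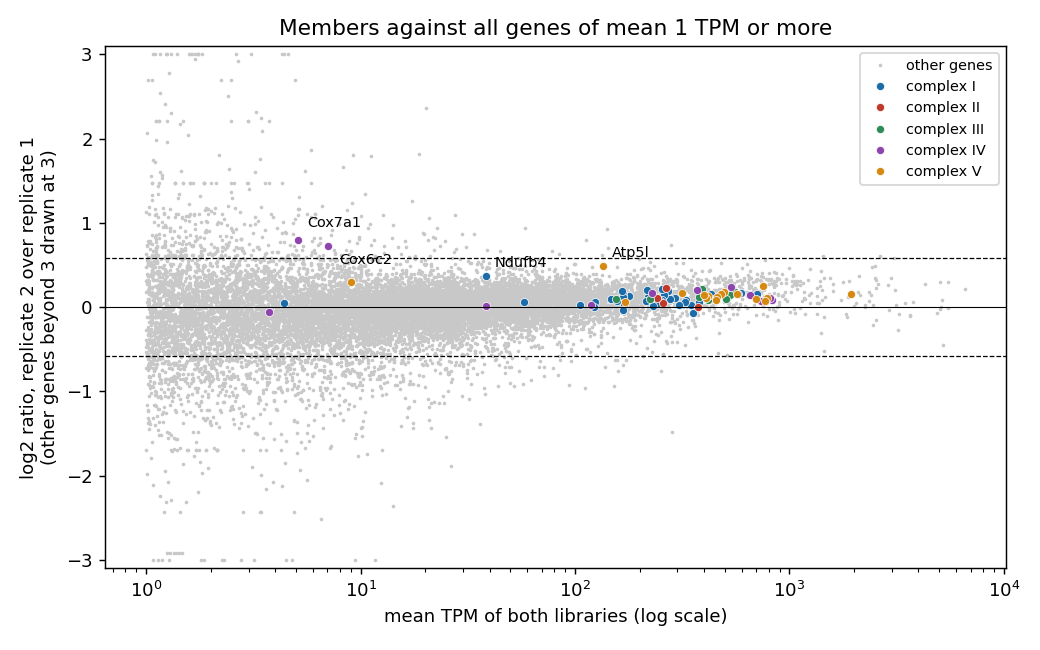
Log2 ratio of replicate 2 over replicate 1 (vertical axis) against mean TPM (log axis) for all 14768 genes of mean 1 TPM or more (grey) and the 82 members among them (coloured by complex), with dashed lines at 1.5-fold. Cox7a1 and Cox6c2 lie past the upper line at low levels, and the abundant members form a narrow band slightly above 0.

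The form of the transcripts was also measured. The deposited isoform percent is the share of a gene's TPM given to each of its annotated transcripts. In 74 of 82 detected members the main transcript was annotated protein coding. In 19 of the 82 the main transcript held under 80% of the gene in both libraries. Of these, the catalytic gene Atp5b had 72.4% and 71.8% in its main coding transcript and 22.3% and 23.1% in a processed transcript. Coding transcripts also led Atp5g3, Atp5h, Cox7b, Cox7c, Ndufa7, Ndufb5, Ndufc1, Ndufs1, Ndufs3, Ndufv1, Sdhc and Uqcrq, with 42.6% to 79.8%. Cox6b2 was the most divided coding case, with 29.3% and 24.2% in its main transcript. For Cox7b, 46.2% and 42.5% lay in a transcript annotated as a retained intron.

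In 5 of the 19 genes and in Ndufa5, the leading transcript by share of TPM was not coding although the gene is. Ndufa5 was named after its values were seen. By expected counts, which are not divided by length, a coding transcript led in Cox5b, Ndufa10 and Ndufb4. In Cox5b it had 3906 and 4603 counts, against 1918 and 2224 for the leading form by TPM. In Atp5f1, Atp5j and Ndufa5 the non-coding form led by counts too. Atp5f1, a peripheral stalk subunit, had 66.2% and 66.2% in a transcript annotated for nonsense-mediated decay. Atp5j, another stalk subunit, had 61.6% and 62.7% in a retained intron form. Cox5b had 55.4% and 54.9% in a processed transcript. Ndufa10 had 29.3% and 29.3% in a retained intron form, and 16.3% and 18.9% in its leading coding transcript. Ndufb4 had 69.9% and 61.5% in a retained intron form, beside the reads given to its copy, and Ndufa5 88.9% and 89.6% in a processed transcript. Transcript shares of this kind are estimates from reads that overlap several annotated forms, and between the libraries they differed most in Ndufb4 among these 6 genes.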

How the data were processed

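Total RNA libraries from 2 pools of embryonic midbrain were read as deposited. Per the README deposited with the tables, reads were assigned on mm10 with GENCODE M4. Which aligner and which quantifier made the tables is not given in the sources used here. The authors deposited, per gene and transcript, the expected count (estimated reads, which need not be whole), TPM, FPKM, a posterior mean TPM and its credible bounds, used here as a signal in TPM whose level is not stated. Expected counts of 54 of 88 members were whole in both libraries. The deposited transcript tables also hold isoform percent. The effective length used by the authors was the transcript length less 99 for genes of 1 transcript, so levels of short subunits depend on that correction.

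Names, biotypes and positions came from GENCODE M21 (GRCm38), matched on gene identifier for 42462 of 43346 rows. The 96 spike-in rows, 3.51% and 3.39% of the gene counts, stayed out of count totals and of ratios of counts, as did tRNA rows. The deposited TPM was not rescaled without them, and in it the spike-ins held 78883 and 73971 TPM. Levels in TPM, and ratios of TPM without further scaling, carry that part. Counts were rounded, scaled by TMM (edgeR 4.0.16; DESeq2 1.42.0 size factors as alternative) and compared as log2 ratios with 0.5 added, over genes of mean 1 TPM or more; the threshold was 1.5-fold. The ratio step was tested on simulated counts with known folds and counting noise only. That checks the calculation and says nothing of spread between pools or of divided reads. No test between groups was possible with 1 group. Other steps used Python 3.11.15, pandas 2.3.3 and R 4.3.3. Promoters were from RefSeq (GRCm38.p6).

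Members and lists were chosen with earlier results of these data known. Genes were named by a rule: in each complex the 4 highest and 3 lowest by mean TPM, the alternative subunits, members under 1 TPM in either library or past 1.5-fold, members whose main transcript held under 80%, and the 2 highest and 2 lowest of each other list. In the newborn neuron, erythroid and germ line lists, not every gene that the rule covers is named. Other genes named were chosen after their values were seen. Alternatives covered the thresholds, FPKM and posterior mean TPM, the scaling, the filter, the added count, each library alone, and sets without low members or copies. A sequence and a marker gene of the lists are not reported here.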

Additional observations from a re-analysis of the deposited data

How the results depend on the processing

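No paired analysis was possible because the labels give 1 group. With 1 library from each pool, differences have no replicate check, and depth limits the members with few counts. Of the values that answer a comparison, 15 moved by more than the spread between the libraries or, for counts, by more than 1.5 times, and 70 moved by less. Among the latter, the 74 members at 100 TPM or more became 59 at 200 TPM and 65 in FPKM. Some of the 70 could not have moved. For summed levels and family shares, 1 library alone always lies nearer to the mean of both than that spread. Family shares in FPKM equal those in TPM apart from rounding. The members' median of 267.8 TPM became 169.7 in FPKM, 299.3 without members under 1 TPM, 292.2 without symbols that name no structural subunit and without copies, and 285.4 without pseudogene rows, a set chosen after seeing the data. Summed FPKM was 6215 for complex I, 719.4 for II, 2002 for III, 3882 for IV and 5864 for V. Within a library FPKM is TPM times 1 constant factor. The FPKM values, some of them among the 15 that moved, are therefore a change of unit. Posterior mean TPM gave 9650.2 for complex I and 1118 for II, and shares of 99.9506% for Cox7b and 99.9728% for Cox8a. Members differing by 1.5-fold numbered 5 of 88 with no filter on low values, against 18.1% of all 43346 genes. Of the 82 members with a mean of 1 TPM or more, 0 differed by 2-fold, against 3.22% of all 14768 such genes. Both shares include many genes of low level, whereas 74 of 88 members reached 100 TPM. Of protein-coding genes with a mean of 100 TPM or more, 0.874% differed by 1.5-fold. The members' median log2 ratio stayed above 0 under every scaling, including spike-in totals, added after seeing the data, at 0.12.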

Other observations

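Transcripts of the members were short. The 82 detected members had a median length of 679.3 nt, and 75.6% were under 1000 nt, against 8.54% of detected protein-coding genes and 27.1% of those of at least 100 TPM. Across the 82 members, which share libraries and the length correction, Spearman's rho between length and TPM was -0.30 and Pearson's r of their logarithms -0.07, a weak relation. Over detected protein-coding genes rho was -0.31 and r -0.32.

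The level of 2 members depended on the annotation release, a comparison chosen after their values were seen. Ndufa11 was given a transcript of 2661 nt, and the same transcript has 545 nt in GENCODE M21. With that length, and if all its counts fell within the shorter form, its level would be 336.8 and 331.2 TPM in place of 58.6 and 57.7 TPM. The main transcript of Ndufa3 was given 349 nt and has 515 nt in M21, which would place the gene at 226.5 and 202.5 TPM in place of 376.9 and 336.9 TPM. That scales the whole gene by a transcript that held 89.3% and 91.8% of it. Reads were not assigned again for either gene.

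The 6 rows with -ps symbols that the rule left out summed to 1.96 and 1.68 TPM. Exons of 29 members overlapped exons of another gene, and the strand of the counting is not stated in the sources used here. For Ndufb6 39% of exonic bases were shared with Smim27 and for Ndufa13 30% with Tssk6, both on the opposite strand.

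The mitochondrial ribosomal protein genes, encoded in the nucleus like the members, had a median log2 ratio of 0.17 between the pools, with 74 of 77 higher in replicate 2. The mitochondrially encoded subunits had a median of -0.01, with 6 of 13 higher. Neither difference from the members was tested.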
